A study of Mus musculus with 14 samples.

Results

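Brain tissue of mice with an intracerebral haemorrhage (ICH) that received acupuncture was compared with brain tissue of mice with a haemorrhage and no acupuncture. These are 8 of the 14 samples: for each of the 2 groups, 2 input libraries of poly(A) RNA and 2 libraries immunoprecipitated (IP) with an antibody against N6-methyladenosine (m6A). The labels give autologous blood as the treatment of the ICH samples and acupuncture as that of the others, and the design text says that the point GV20 was used for 7 consecutive days. By that text the mice of both groups had the haemorrhage. Strain, age, brain region and the volume of blood are not given in the sources used here, nor whether the untreated mice were handled or restrained in the same way. The labels do not say that replicates are separate animals, so every p-value here measures the spread between these samples, which may be technical. Sham samples (3 input libraries) are given beside the values and entered the fit, where they helped to estimate the spread. RNA levels were compared for 13666 of 31507 genes, those whose level averaged 1 FPKM or more (fragments per kilobase of transcript, scaled to library size) over the 7 input libraries.

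m6A is the most common internal mark of messenger RNA and is dense near stop codons and in 3′ untranslated regions. A writer complex around Mettl3 and Mettl14 places it, the demethylases Fto and Alkbh5 remove it, and YTH-domain proteins bind it and steer splicing, translation and decay. After bleeding into the brain, resident microglia and incoming neutrophils and monocytes clear blood and debris, haem is broken down by haem oxygenase, and astrocytes around the clot become reactive. Acute phase proteins such as serum amyloid A and lipocalin, and alarmins such as the S100a8 and S100a9 pair, are made in quantity in such tissue.

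Several groups of genes differed in RNA level. Members were counted where both acupuncture libraries lay beyond both ICH libraries and the group means differed by at least 1.5-fold. Beside 5.02% of all genes, higher were 10 of 12 measured genes of acute phase proteins, alarmins and receptors such as Fpr1 and Cd14. So were 7 of 14 glucocorticoid-responsive genes and 6 of 15 chemokines. Lower were 6 of 12 thalamic and 6 of 21 striatal genes, beside 2.5% of all genes. Saa3, a serum amyloid A protein, stood at 62.7 and 26.1 FPKM in the 2 ICH libraries and at 324 and 297 FPKM in the 2 acupuncture libraries. Shox2, a transcription factor of thalamic neurons, stood at 1.38 and 2.00 FPKM and at 0.0663 and 0.0221 FPKM. In the m6A table every class of peak leaned to lower enrichment in acupuncture. Very few single genes passed a test across all genes, so most of what follows describes levels in 4 libraries.

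One library of each group stood apart. ICH replicate 2 correlated with ICH replicate 1 at r = 0.942 across genes on the log2 scale, below the 0.975 between ICH replicate 1 and acupuncture replicate 1, and mitochondrially encoded transcripts summed to 823 FPKM in it beside 391 to 570 FPKM in the other 6 input libraries. Within ICH the median gap between the 2 libraries was 0.27 per gene (log2), and within acupuncture 0.13. Acupuncture replicate 2 held almost no choroid plexus RNA: Ttr, the transthyretin made by that tissue, was at 335 FPKM in acupuncture replicate 1 and 1.13 FPKM in replicate 2, beside 326 and 340.1 FPKM in ICH. It also held more RNA of 3 genes picked after their values were seen: Dlx1 (15.9 FPKM beside 3.42 in replicate 1), Sp8 (5.35 beside 0.346) and Aqp1 (14.96 beside 1.75). Summed marker levels of neurons (553 to 852 FPKM), astrocytes (214 to 327 FPKM), cortex (217 to 243 FPKM) and oligodendrocytes (417 to 700 FPKM) show that all 4 libraries hold brain RNA, and the cerebellar marker Gabra6 was listed at 0 in all 4. A set of 5 thalamic markers summed to 22.8 and 24.6 FPKM in ICH and to 10.3 and 8.78 FPKM in acupuncture; a longer list, described with its genes, did not keep this order in acupuncture replicate 2. Neutrophil markers summed to 15.95 and 15.6 FPKM in ICH and to 78.1 and 50.3 FPKM in acupuncture, and most of that sum in each of the 4 libraries was S100a8 and S100a9, which also belong to the acute phase group. How these differences between libraries bear on the gene groups described next was not tested, and values without the libraries are given beside the groups.

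**Figure D1:**
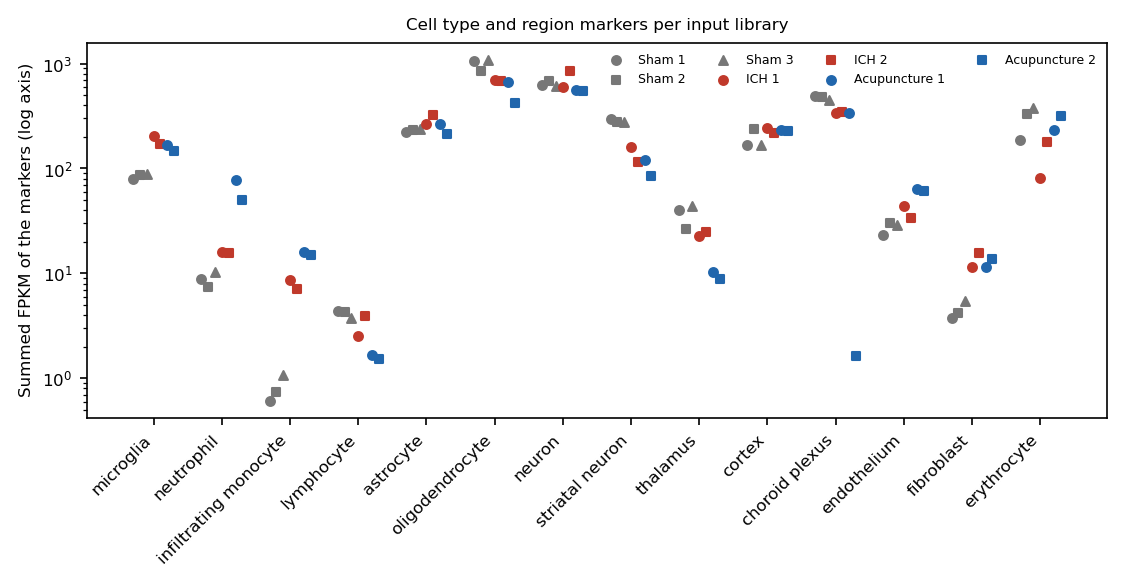
Summed FPKM (log axis) of the markers of 14 cell types and brain regions in each input library; circles, squares and triangles are replicates 1, 2 and 3. The neutrophil sum, mostly S100a8 and S100a9, and the sum of 5 thalamic markers lie apart from both ICH libraries in the 2 acupuncture libraries, and the choroid plexus sum of acupuncture replicate 2 is 1.64 FPKM.

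Of the 13666 genes, 5 passed limma's test at an adjusted p under 0.05 (0.0366%), all 5 higher in acupuncture, and 0 were lower. At an unadjusted p under 0.05 there were 1632 higher (11.9%) and 1122 lower (8.21%) genes. With 2 libraries against 2, an exact permutation test of a single gene cannot give a p below 0.333. Gene groups are therefore described by a count without a test. A gene is called separated when both acupuncture libraries lie on the same side of both ICH libraries and the group means differ by at least 1.5-fold on the log2(FPKM + 1) scale. Separated genes numbered 686 higher in acupuncture (5.02% of those tested) and 342 lower (2.5%), 7.52% together, so higher genes made up 66.7% of them. Without the fold minimum, 28.8% of genes lay higher in both acupuncture libraries than in both ICH libraries and 20.7% lay lower. After quantile normalization the split was 524 higher and 513 lower, or 50.5% higher. ICH replicate 2 matters for these counts: without it there were 378 higher and 212 lower separated genes, of which 208 and 151 were among the original ones. Without ICH replicate 1 there were 2027 and 1138, and 5105 genes passed limma's test. The median difference over all tested genes was 0.047 on the log2 scale.

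The 5 genes that rose were 2 ribosomal pseudogenes, a predicted gene, Vps25 and Ctla2a. Rps12-ps4 (ENSMUSG00000109509; GRCm38 chromosome 7, 30484701 to 30485097) went from 2.09 and 1.17 FPKM in ICH to 50.3 and 44.9 FPKM in acupuncture, with 18.9 ± 4.66 FPKM in sham (SD, n = 3). Rpl10-ps3 (ENSMUSG00000058443; chromosome 9, 50344201 to 50344968) went from 1.22 and 0.778 to 17.3 and 18.4 FPKM. Both may share reads with their parent genes, so their levels are uncertain. Gm14150 (ENSMUSG00000082809; chromosome 2, 151458956 to 151460309) went from 0.836 and 0.265 to 8.83 and 7.15 FPKM. Vps25 (ENSMUSG00000078656; chromosome 11, 101253707 to 101259549), part of the ESCRT-II complex that sorts membrane proteins into endosomes, went from 6.89 and 7.11 to 21.9 and 26.2 FPKM beside 20.8 ± 1.93 FPKM in sham, with no overlap between ICH and either other group. Ramp2, whose gene overlaps Vps25, moved the other way, from 12.6 and 15.4 to 8.04 and 5.22 FPKM (limma adjusted p = 0.170), so the levels of both are uncertain. Ctla2a (ENSMUSG00000044258; chromosome 13, 60934155 to 60936625), an inhibitor of cysteine proteases, went from 5.37 and 4.03 to 17.2 and 19.2 FPKM and has a close paralogue. The limma log2 differences of Vps25 and Ctla2a were 1.64 (SE 0.13) and 1.76 (SE 0.14), both with an adjusted p of 0.0176. Neither passed without sham replicate 1 (adjusted p = 0.093 and 0.0925) or 3 (0.0846 and 0.0945), nor without acupuncture replicate 2 (0.1 and 0.129). Vps25 also missed the threshold without ICH replicate 2 (0.0554) and Ctla2a without acupuncture replicate 1 (0.0588). Gm14150 missed it without either of these sham libraries (0.0925 and 0.0846) or either acupuncture library (0.0676 and 0.0841), and with a pseudocount of 0.1 FPKM (0.0833). With only the 4 compared libraries in the limma fit the adjusted p of Vps25, Ctla2a and Gm14150 was 0.233 each, and with a replicate block it was 0.159 for Vps25 and 0.183 for Ctla2a. The 2 pseudogenes passed under all 14 alternatives run.

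Acute phase, alarmin and formyl peptide genes formed the group with the most separated members. This group also holds other receptors, such as Cd14, Clec4n and Pilra. Of its 17 genes, 12 were measured at the minimum level, 10 of these 12 were separated higher in acupuncture and 0 lower, and the median log2 difference was 1.14. No member passed limma's test (smallest adjusted p = 0.071). The promoters of the members that hold one shared motif are shown here, because the members were higher together: the 250 bases before the RefSeq start site (GRCm38.p6), read 5′ to 3′ on the gene's strand, with a match to the C/EBP-type motif TTGCNNAA on either strand in capitals. C/EBP factors are known regulators of acute phase genes.
Saa3 (chr7:46715677-46715926, minus strand): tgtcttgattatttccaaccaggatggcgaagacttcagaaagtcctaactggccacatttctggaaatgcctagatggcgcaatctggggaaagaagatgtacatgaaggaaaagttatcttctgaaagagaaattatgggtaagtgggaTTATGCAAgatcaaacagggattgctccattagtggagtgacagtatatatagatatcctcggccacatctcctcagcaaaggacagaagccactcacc
Lcn2 (chr2:32387740-32387989, minus strand): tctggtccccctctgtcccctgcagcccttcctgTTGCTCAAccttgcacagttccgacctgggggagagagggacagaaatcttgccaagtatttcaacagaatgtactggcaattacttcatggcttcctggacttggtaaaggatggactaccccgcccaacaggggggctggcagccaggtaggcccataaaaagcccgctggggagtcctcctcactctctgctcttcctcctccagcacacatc
S100a9 (chr3:90695722-90695971, minus strand): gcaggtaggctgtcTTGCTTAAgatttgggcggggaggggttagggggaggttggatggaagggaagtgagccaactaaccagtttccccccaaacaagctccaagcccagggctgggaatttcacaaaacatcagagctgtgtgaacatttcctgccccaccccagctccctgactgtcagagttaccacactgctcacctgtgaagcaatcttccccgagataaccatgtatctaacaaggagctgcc
Pilra (chr5:137836279-137836528, minus strand): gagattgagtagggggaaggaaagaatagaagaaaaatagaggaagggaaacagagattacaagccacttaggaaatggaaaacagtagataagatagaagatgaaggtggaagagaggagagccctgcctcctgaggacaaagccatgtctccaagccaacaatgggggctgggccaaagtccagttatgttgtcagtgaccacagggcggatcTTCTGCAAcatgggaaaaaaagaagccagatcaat
Of the 10 separated members, 7 had a window in the RefSeq table, and 4 of these 7 hold the motif (57.1%), beside 9.56% of 32851 windows of all genes. Among the 528 windows of all genes separated higher the share was 8.9%. Of the other motifs searched on both strands, TTCNNNGAA (STAT) was in 1 of the 7 windows, and the NF-kB motif, TGANTCA (AP-1) and TGACGTCA (CRE) were in 0. A match is a description of these letters and not evidence of binding.

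Among the secreted acute phase proteins, Saa3 (ENSMUSG00000040026; chromosome 7, 46711998 to 46715700) showed the widest gap. Its level was 2.72 ± 0.146 FPKM in sham (SD, n = 3), 62.7 and 26.1 FPKM in ICH and 324 and 297 FPKM in acupuncture, so both acupuncture libraries lay far above both ICH libraries, which themselves differed from each other. The log2 difference was 2.90 (SE 0.35, limma adjusted p = 0.0789), and it passed without ICH replicate 2 (2.29, adjusted p = 0.00212). Haptoglobin, Hp, which binds free haemoglobin, was at 1.96 and 1.2 FPKM in ICH and 14.8 and 5.60 FPKM in acupuncture. Lcn2, the lipocalin that withholds iron from bacteria, was at 38.6 and 41.9 FPKM and 91.7 and 45.8 FPKM, so only acupuncture replicate 1 was well above the ICH libraries. The alarmins S100a8 and S100a9, abundant proteins of neutrophils and monocytes, went together: S100a8 was at 5.33 and 6.64 FPKM in ICH and 30.9 and 19.2 FPKM in acupuncture, and S100a9 at 9.92 and 7.18 and 43.4 and 27.8 FPKM. Their log2 differences were 1.87 and 1.92 (limma adjusted p = 0.0827 for both). The receptors for formyl peptides, which sense bacterial and mitochondrial peptides, were also higher. Fpr1 was at 1.94 and 2.70 FPKM in ICH and 11.4 and 8.17 FPKM in acupuncture, and Fpr2 at 0.796 and 0.971 and 4.93 and 3.70 FPKM (limma adjusted p = 0.0710 for both). Cd14, the co-receptor for endotoxin, was at 5.27 and 4.29 and 10.3 and 6.81 FPKM. Clec4n, a C-type lectin receptor of myeloid cells, was at 3.17 and 3.72 and 5.57 and 5.98 FPKM, and Pilra, an inhibitory receptor, at 1.27 and 1.80 and 4.02 and 2.54 FPKM. The other 2 measured members overlapped between the groups: Orm2, another acute phase protein, at 4.31 and 3.47 FPKM in ICH and 3.63 and 0.214 FPKM in acupuncture, and Clec4d, a C-type lectin receptor, at 2.44 and 8.17 and 10.1 and 7.58 FPKM. When any of the 4 libraries was left out, 7 to 11 members were separated higher and the median lay between 0.99 and 1.53. In 2 of these settings, without ICH replicate 2 or acupuncture replicate 1, 1 member was separated lower. After quantile normalization 8 were higher and 1 lower.

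**Figure D2:**
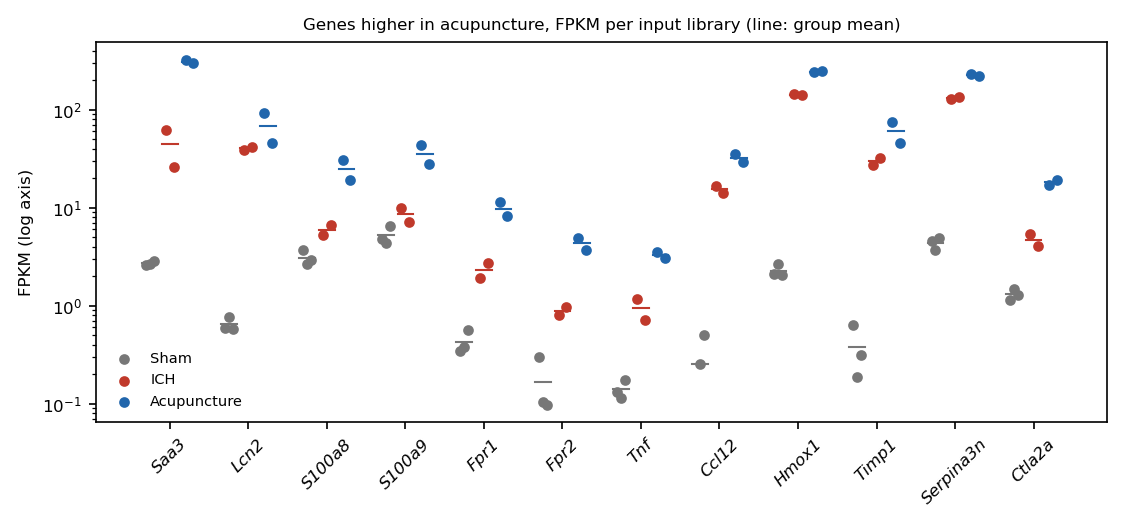
FPKM (log axis) of 12 genes that were higher in acupuncture, 1 point per input library, with a line at each group's mean. Both acupuncture points lie above both ICH points for every gene shown, and for Saa3 they lie at 324 and 297 FPKM against 62.7 and 26.1.

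Markers of blood-derived cells were measured beside these genes. Of 14 neutrophil genes, 4 passed the minimum level and 2 of them, S100a8 and S100a9, were separated. The more specific neutrophil markers had low levels in every library, and some were higher in acupuncture. Mpo was listed at 0 in all 4 libraries, and Ly6g at 0 in 3 of them and at 0.145 FPKM in acupuncture replicate 1. Cxcr2, the chemokine receptor of neutrophils, was at 0.513 and 0.434 FPKM in ICH and 1.66 and 1.28 FPKM in acupuncture. Retnlg was at 0 and 0.39 and 1.13 and 1.02 FPKM. Mmp8 overlapped between the groups, at 0.19 and 0.93 and 0.847 and 1.05 FPKM. Of 14 infiltrating monocyte and macrophage genes, 6 were measured, 4 were separated higher and 1 lower, with a median of 0.77. Lyz2, lysozyme, was at 107 and 178 FPKM in ICH and 232 and 222 FPKM in acupuncture, and Chil3, a chitinase-like protein of alternatively activated macrophages, at 3.87 and 1.28 and 6.90 and 8.76 FPKM. Arg1, arginase, was at 8.31 and 7.22 and 27.03 and 10.9 FPKM, and F13a1 at 2.30 and 2.48 and 6.19 and 3.96 FPKM. Thbs1, thrombospondin, was the lower one at 3.23 and 5.12 and 1.97 and 2.11 FPKM. Ccr2, which defines infiltrating monocytes, was not higher: 0.628 and 0.759 FPKM in ICH and 0.829 and 0.518 FPKM in acupuncture. Without acupuncture replicate 1, 2 monocyte genes were separated higher and the median was 0.5. In tissue RNA, more cells of a type and more RNA per cell cannot be told apart.

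Some of the chemokines and cytokines that draw in and activate such cells were separated higher, and none passed limma's test. Of 15 measured chemokines, 6 were separated higher and 0 lower, with a median of 0.58 beside 0.047 for all genes. Ccl12, a ligand of Ccr2, was at 16.8 and 14.05 FPKM in ICH and 35.2 and 29.1 FPKM in acupuncture. Ccl3 was at 4.97 and 6.89 and 13.9 and 8.89 FPKM, and Ccl4 at 2.59 and 1.26 and 6.41 and 3.77 FPKM. Ccl6, Ccl9 and Cxcl16 were the other 3, with log2 differences of 0.79, 0.64 and 0.59. Only 3 chemokines were separated without ICH replicate 1, with a median of 0.33. At a mean of at least 5 FPKM 7 chemokines were measured, 2 of them were separated higher, and the median was 0.17. In the TNF and interleukin-1 system 3 of 12 were separated higher and 0 lower. Tnf itself was at 1.18 and 0.714 FPKM in ICH and 3.57 and 3.03 FPKM in acupuncture (log2 difference 1.15, limma adjusted p = 0.0827). Its receptor Tnfrsf1b was at 5.16 and 4.88 and 10.7 and 6.63 FPKM, and Nfkbia, the inhibitor of NF-kB that NF-kB itself induces, at 15.2 and 9.54 and 25.5 and 20.2 FPKM. Interleukin-1 receptor accessory protein, Il1rap, pointed the other way at 3.29 and 3.73 and 2.63 and 2.50 FPKM, under 1.5-fold. The median of this group was 0.36, and 0.13 without acupuncture replicate 1, when 2 members were separated; without acupuncture replicate 2 there were 5.

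Sensors and effectors of innate immunity gave smaller counts. Of 10 measured Toll-like receptors and adaptors 3 were separated higher: Tlr2, the receptor for lipoproteins, at 6.75 and 6.64 FPKM in ICH and 11.8 and 10.4 FPKM in acupuncture, its adaptor Myd88 at 3.69 and 2.59 and 5.35 and 5.21 FPKM, and Cd14, and without acupuncture replicate 1 it was 1. Of 17 complement genes 3 were separated higher and 0 lower. Properdin, Cfp, which stabilises the alternative pathway, was at 6.91 and 5.93 and 12.4 and 13.3 FPKM (limma adjusted p = 0.0936), and C5ar1, the receptor for the anaphylatoxin C5a, at 3.59 and 3.97 and 8.63 and 6.07 FPKM. The third was C1qa, at 176 and 72.5 and 209 and 223 FPKM, where ICH replicate 2 alone was low; C1qb, its partner in the same complex, was at 117 and 135 and 146 and 141 FPKM. The complement count was 7 without ICH replicate 1, and without ICH replicate 2 it was 2 higher and 1 lower. Of 12 antigen presentation genes 3 were separated higher (Psmb8, H2-D1 and H2-T23), with counts from 0 without ICH replicate 2 to 6 without ICH replicate 1 (when 4 were lower) or acupuncture replicate 1 (when 2 were lower), and 1 without acupuncture replicate 2. Among 7 Fc receptors, Fcgr4, an activating receptor for IgG, was separated at 4.01 and 3.64 FPKM in ICH and 7.63 and 7.61 FPKM in acupuncture, where both pairs of libraries agree closely. Without 1 library, the Fc receptor count ran from 1 to 3. Of 16 interferon response genes 1 was separated higher, and with 1 library left out 1 to 8 were, the 8 without acupuncture replicate 1.

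Several microglial identity genes were lower in acupuncture. Of 18 measured members 5 were separated lower, beside 2.5% of all genes, and 1 was separated higher. P2ry12, the purinergic receptor that marks homeostatic microglia, was at 12.4 ± 0.481 FPKM in sham, 12.3 and 22.1 FPKM in ICH and 6.99 and 5.55 FPKM in acupuncture. Its log2 difference was -1.28 (SE 0.25, limma adjusted p = 0.158). Siglech, a microglial lectin, was at 3.00 and 3.78 and 1.13 and 0.576 FPKM (limma adjusted p = 0.0827), with 3.25 ± 0.336 FPKM in sham. Gpr34, a lysophospholipid receptor, was at 6.75 and 7.30 and 4.03 and 2.09 FPKM. P2ry13 and Selplg were the other 2, with log2 differences of -0.60 and -0.75. Csf1r, the receptor on which microglia depend, hardly differed at 33.3 and 28.4 and 28.3 and 27.3 FPKM. Aif1, which encodes the Iba1 protein of activated microglia and macrophages, was higher at 9.16 and 8.32 and 13.7 and 13.1 FPKM, just under 1.5-fold. The separated higher member was C1qa. The median of the group was -0.14, and without ICH replicate 2 it had 3 separated lower members and 0 higher, while without ICH replicate 1 there were 5 lower and 3 higher.

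Among genes of the lipid-laden phagocyte, 2 of 16 were separated higher. Plin2, which coats lipid droplets, was at 6.95 and 5.25 FPKM in ICH and 11.04 and 8.77 FPKM in acupuncture, and Cd63, a protein of late endosomes and lysosomes, at 24.2 and 12.6 and 36.2 and 32.6 FPKM. Ctsb, a lysosomal cathepsin, was higher in both acupuncture libraries at 142 and 129 and 178 and 168 FPKM but under 1.5-fold. Leaving out ICH replicate 1 gave 6 higher and 1 lower. Without ICH replicate 2 or acupuncture replicate 1 there was 1, and without acupuncture replicate 2 there were 3.

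Reactive astrocyte genes had 7 of 23 measured members separated higher and 0 lower, with a median of 0.31. Timp1, an inhibitor of matrix metalloproteinases, was at 0.381 ± 0.234 FPKM in sham, 27.4 and 32.4 FPKM in ICH and 75.8 and 45.98 FPKM in acupuncture. Serpina3n, a secreted protease inhibitor, was at 128 and 134 and 229 and 219 FPKM, with close agreement within each pair. Hspb1, a small heat shock protein, was at 6.89 and 5.11 and 14.5 and 13.8 FPKM (log2 difference 1.13, limma adjusted p = 0.0789). Vimentin, Vim, was at 65.6 and 58.9 and 89.5 and 75.9 FPKM, higher in both but under 1.5-fold. The remaining separated members were Lcn2, Aspg, S100a10 and Tm4sf1. With any one library left out 6 to 10 members were separated higher. By contrast, of 14 astrocyte homeostasis genes 0 were separated higher and 1 lower. Without ICH replicate 1 these counts were 4 and 2, and without acupuncture replicate 1 the lower count was 2 while the median changed sign, from 0.15 to -0.033.

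Genes that handle haem and iron are of interest because both groups carried blood in the brain. Of 20 measured members 3 were separated higher and 0 lower, with a median of 0.15. Hmox1, the enzyme that opens the haem ring (ENSMUSG00000005413), was at 2.29 ± 0.337 FPKM in sham, 144 and 141 FPKM in ICH and 240.0 and 249 FPKM in acupuncture. The 4 libraries formed close pairs, and the log2 difference was 0.78 (SE 0.12, limma adjusted p = 0.107). Ftl1, the ferritin light chain that stores iron, was at 544 and 249.9 and 796 and 758 FPKM, where the ICH libraries differed more from each other than replicate 1 did from acupuncture. The third was Lcn2. Slc11a1, an iron transporter of phagosomes, was at 4.46 and 5.15 and 6.87 and 7.34 FPKM, under 1.5-fold. Without ICH replicate 2 or acupuncture replicate 1 the count was 2. Red cell transcripts were also higher: 4 of 6 measured erythroid genes, all globins, were separated. Hba-a1 was at 23.6 and 46.8 FPKM in ICH and 59.5 and 79.97 FPKM in acupuncture, beside 85.5 ± 22.4 FPKM in sham, and Hbb-bs at 27.1 and 72.7 and 91.1 and 127 FPKM. The globin copies are near-identical, so reads may be divided between them. Only 2 globins were separated without ICH replicate 1, and the median went from 1.03 to 0.56.

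Genes that respond to glucocorticoids had 7 of 14 measured members separated higher and 0 lower, with a median of 0.48. Mt2, a metallothionein that binds zinc, was at 294 and 226 FPKM in ICH and 526 and 446 FPKM in acupuncture. Tsc22d3, known as glucocorticoid-induced leucine zipper, was at 12.2 ± 1.82 FPKM in sham, 9.06 and 5.93 FPKM in ICH and 12.9 and 11.01 FPKM in acupuncture. Fkbp5, a co-chaperone of the glucocorticoid receptor, was at 4.08 and 1.81 and 4.61 and 6.26 FPKM, where ICH replicate 1 nearly reached acupuncture. Sult1a1, Ddit4, Nfkbia and Cdkn1a were the others, and the last 2 also answer to other signals. Nr3c1, the receptor itself, was at 12.4 and 12.7 and 10.3 and 10.3 FPKM. Without ICH replicate 2 the count was 3, and with any other single library left out it was 5 or 6. Among immediate early genes, which follow neuronal activity and handling, Atf3 and Junb were separated higher and Nr4a3 lower of 19. These counts depended on single libraries, with 9 higher without ICH replicate 2, 11 higher without acupuncture replicate 1, and 0 higher without acupuncture replicate 2. Without ICH replicate 1, 2 were higher and 5 lower, and after quantile normalization 0 were higher and 1 lower. The median of that group was 0.24, and it was -0.26 without ICH replicate 1 and -0.17 without acupuncture replicate 2.

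Endothelial genes had 5 of 19 measured members separated higher and 1 lower. Cldn5, the main claudin of the blood-brain barrier, was at 29.98 and 16.8 FPKM in ICH and 47.5 and 45.5 FPKM in acupuncture, and Slc2a1, the glucose transporter of barrier endothelium, at 27.7 and 24.7 and 44.7 and 40.2 FPKM. Vwf, von Willebrand factor, was at 3.17 and 2.81 and 5.78 and 5.61 FPKM (limma adjusted p = 0.0884), and the adhesion molecule Icam1 at 2.98 and 2.45 and 4.83 and 4.34 FPKM. Ly6c1 was the fifth, and Ramp2 the lower one. The vascular receptors Flt1, Kdr and Tek differed by less than 1.5-fold (-0.18, -0.13 and -0.14). With any one library left out, 4 or 5 members were separated higher and 1 or 2 lower.

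Marker genes of the thalamus and striatum were among those lower in acupuncture. Of 12 measured thalamus and habenula genes 6 were separated lower and 0 higher, with a median of -0.57, and 6 to 8 were separated lower whichever library was left out. Shox2 was at 3.72 ± 1.12 FPKM in sham, 1.38 and 2.00 FPKM in ICH and 0.0663 and 0.0221 FPKM in acupuncture, so it was nearly absent from both acupuncture libraries (log2 difference -1.35, SE 0.23, limma adjusted p = 0.136). Tcf7l2, a transcription factor of the Wnt pathway that marks thalamic neurons, was at 1.66 and 3.24 FPKM in ICH and 0.545 and 0.656 FPKM in acupuncture. Slc17a6, the vesicular glutamate transporter of subcortical neurons, was at 6.39 and 9.45 and 3.29 and 2.63 FPKM. Prkcd, a protein kinase C of thalamic relay neurons, was at 12.4 and 8.05 and 5.41 and 4.61 FPKM, and Plekhg1 at 4.41 and 5.71 and 1.89 and 1.78 FPKM (limma adjusted p = 0.0884). The sixth was Nexn. Calb2, the calcium-binding protein calretinin, pointed the other way at 9.0 and 10.2 and 6.42 and 54.8 FPKM, high in acupuncture replicate 2 alone. With it, the list summed to 53.1 and 57.6 FPKM in ICH and to 29.5 and 83.5 FPKM in acupuncture, so the sum of acupuncture replicate 2 lay above both ICH libraries. Without ICH replicate 1 or acupuncture replicate 1, 1 member was separated higher. At a mean of at least 5 FPKM 5 members were measured, 2 of them were separated lower, and the median was -0.14.

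Of 21 measured genes of striatal medium spiny neurons 6 were separated lower and 0 higher, and 15 of the 21 had no overlap between the groups on the lower side, beside 20.7% of all genes. Pde10a, the phosphodiesterase of these neurons (ENSMUSG00000023868; chromosome 17, 8525372 to 8986648), was at 24.7 ± 1.12 FPKM in sham, 13.7 and 15.7 FPKM in ICH and 7.25 and 5.89 FPKM in acupuncture (log2 difference -1.05, SE 0.13, limma adjusted p = 0.0789). The dopamine receptor Drd2, of the indirect pathway, was at 7.19 and 14.1 and 5.06 and 3.07 FPKM, and Adora2a, the adenosine receptor of the same neurons, at 10.03 and 8.53 and 7.54 and 3.89 FPKM. Drd1, of the direct pathway, was at 7.90 and 6.31 and 5.57 and 3.88 FPKM, under 1.5-fold. Rgs9 and Gng7, which act in G-protein signalling in these cells, were separated too, and in both acupuncture replicate 2 was the lowest library. Penk, the enkephalin precursor, was at 82.8 and 79.3 and 71.9 and 62.97 FPKM. The median of the group was -0.33, and it was -0.17 with 2 separated members without acupuncture replicate 2. Without ICH replicate 1 there were 3, and without acupuncture replicate 1 or ICH replicate 2 there were 9.

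**Figure D3:**
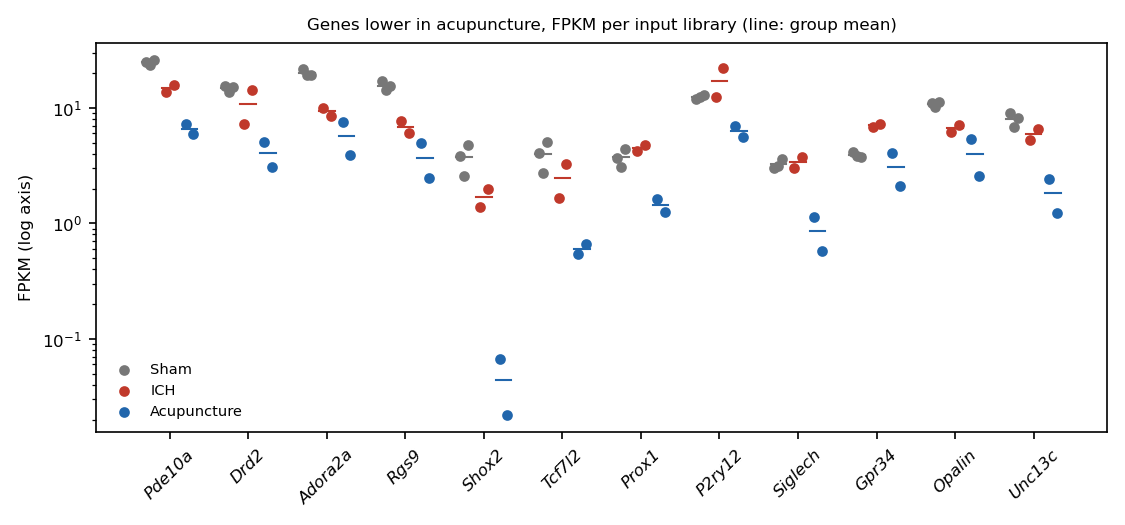
FPKM (log axis) of 12 genes that were lower in acupuncture, 1 point per input library, with a line at each group's mean. Both acupuncture points lie below both ICH points for every gene shown, and Shox2 is at 0.0663 and 0.0221 FPKM in acupuncture.

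Hippocampal genes had 3 of 9 measured members separated lower: Prox1, C1ql2 and Neurod1. Prox1, a homeobox factor of dentate granule cells, was at 3.71 ± 0.656 FPKM in sham, 4.24 and 4.75 FPKM in ICH and 1.63 and 1.25 FPKM in acupuncture (limma adjusted p = 0.0827), and C1ql2, a synaptic organiser of their mossy fibres, at 4.63 and 2.79 and 0.707 and 0.329 FPKM. With 1 library left out 3 or 4 were separated lower, and 1 was higher without ICH replicate 1 or acupuncture replicate 1. The median of this group was -0.41, and -0.042 without acupuncture replicate 2. At a mean of at least 5 FPKM 4 members were measured, 0 of them were separated, and the median was 0.024. Cortical excitatory genes differed little: 1 of 14 was separated lower, and 4 without ICH replicate 1. None of 13 pan-neuronal genes was separated in either direction (median -0.15), although 2 were higher and 3 lower without ICH replicate 1 and 1 higher without acupuncture replicate 2.

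Glutamate and GABA receptor genes had 5 of 33 measured members separated lower, beside 2.5% of all genes, and 0 higher. Lower without overlap at any fold were 23 of the 33, beside 20.7% of all genes, and the median was -0.33. Gabrb2, a subunit of GABA-A receptors, was at 15.6 and 13.5 FPKM in ICH and 7.55 and 8.78 FPKM in acupuncture, with 15.4 ± 0.735 FPKM in sham. Grin2b, a subunit of NMDA receptors, was at 18.3 and 22.1 and 11.5 and 13.1 FPKM, and the metabotropic receptor Grm5 at 16.6 and 18.2 and 11.6 and 11.1 FPKM, just under 1.5-fold. This count was 2 without ICH replicate 2, 14 without ICH replicate 1, 8 without acupuncture replicate 1 and 9 after quantile normalization. Potassium channels had 4 of 34 separated lower and 1 higher, among them Kcna1 at 17.6 and 22.04 and 11.01 and 11.3 FPKM and Kcnq3, of the M-current, at 12 and 17.6 and 8.29 and 7.19 FPKM. The lower count was 2 without ICH replicate 2 and 10 without ICH replicate 1. Of 21 genes of vesicle release 3 were separated lower, among them Unc13c, a priming factor, at 5.26 and 6.49 and 2.40 and 1.23 FPKM. It was 1 without ICH replicate 2 and 7 without ICH replicate 1.

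Myelin genes had 5 of 16 measured members separated lower and 0 higher. Opalin, a membrane protein of the myelin paranode, was at 10.7 ± 0.570 FPKM in sham, 6.21 and 7.10 FPKM in ICH and 5.41 and 2.58 FPKM in acupuncture. This group depended on acupuncture replicate 2: without it 0 members were separated and the median went from -0.33 to -0.11, while without acupuncture replicate 1 there were 8. Without ICH replicate 2 there were 3. Choroid plexus genes had 5 of 9 separated lower and 1, Aqp1, higher. Without acupuncture replicate 2, 3 were lower and 0 higher, and without acupuncture replicate 1, 8 were lower. Mitochondrially encoded genes had 2 of 13 separated lower, 11 without ICH replicate 1, 6 without acupuncture replicate 1 and 0 without ICH replicate 2, when 3 were higher and the median went from -0.3 to 0.23.

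Outside these groups, the genes named next were among the separated ones with the smallest p in their direction, the lower ones first. Shc3, a neuronal adaptor of receptor tyrosine kinases, was at 6.57 and 7.86 FPKM in ICH and 3.2 and 3.19 FPKM in acupuncture, with 7.23 ± 0.0947 FPKM in sham (log2 difference -0.97, SE 0.11, limma adjusted p = 0.0710). Klhdc7a was at 2.29 and 1.95 FPKM in ICH and was listed at 0 in both acupuncture libraries, and passed with a pseudocount of 0.1 FPKM (limma adjusted p = 0.0165) or without sham replicate 2 (0.0429). Camk4, a calcium-dependent kinase, was at 9.88 and 11.7 and 5.99 and 5.62 FPKM, Atp2b3, a plasma membrane calcium pump, at 19.5 and 21.1 and 12.4 and 10.6 FPKM, and Slit3, an axon guidance ligand, at 4.62 and 4.74 and 2.51 and 2.66 FPKM. Hs6st3, a heparan sulfate sulfotransferase, was at 4.90 and 4.72 and 2.37 and 2.13 FPKM, Tshz2 at 6.79 and 6.46 and 3.70 and 3.78 FPKM, Xkr4 at 4.32 and 5.59 and 1.53 and 1.92 FPKM and Pakap (ENSMUSG00000090053) at 3.92 and 4.44 and 1.95 and 2.16 FPKM. Another identifier with the symbol Pakap overlaps it, so its level is uncertain. The limma adjusted p of these 7 genes lay between 0.0789 and 0.0827. On the higher side, Rab20, a small GTPase of phagosomes, was at 1.30 and 1.19 and 3.13 and 3.29 FPKM, and Cyp4f18, an enzyme that hydroxylates leukotriene B4, at 1.51 and 1.37 and 3.31 and 3.52 FPKM and listed at 0 in every sham library.

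The remaining lists had at most 2 separated members in either direction, and shares such as 1 of 18 or 1 of 17 are close to the 5.02% higher and 2.5% lower of all genes. Higher were 1 of 12 Jak-Stat3 genes, 1 of 18 ferroptosis and glutathione genes, 2 of 12 genes of apoptosis and the inflammasome, 2 of 13 of hypoxia and glycolysis, 2 of 14 metalloproteinases and inhibitors, 1 of 17 heat shock genes, 1 of 13 cell cycle genes and 1 of 17 mural cell and fibroblast genes. Lower were 1 of 12 oligodendrocyte precursor genes, 2 of 20 opioid and neuropeptide genes, 1 of 16 growth factor genes, 1 of 4 cerebellar genes and 1 of 2 lymphocyte genes. Collagen and matrix genes had 2 higher and 1 lower of 13, and inhibitory neuron genes 2 higher and 1 lower of 14. Those 2 inhibitory genes, Dlx1 and Sp8, were high in acupuncture replicate 2 alone. Of the 7 ependymal and 4 sex-linked genes 0 were separated. These small counts moved with single libraries. Without ICH replicate 1, higher members numbered 4 for ferroptosis, 4 for hypoxia, 4 for heat shock (with 2 lower), 4 for inhibitory neurons (with 3 lower) and 3 for Jak-Stat3, and 4 collagen and 3 growth factor genes were lower. Without ICH replicate 2 there were 0 for ferroptosis, 0 for apoptosis and 3 higher for mural cells. Without acupuncture replicate 1, 7 inhibitory neuron, 4 hypoxia and 3 neuropeptide genes were higher and 3 ependymal genes lower. Without acupuncture replicate 2, 4 Jak-Stat3, 4 metalloproteinase and 3 ependymal genes were higher. The other counts in these lists stayed between 0 and 3 when 1 library was left out.

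**Figure D4:**
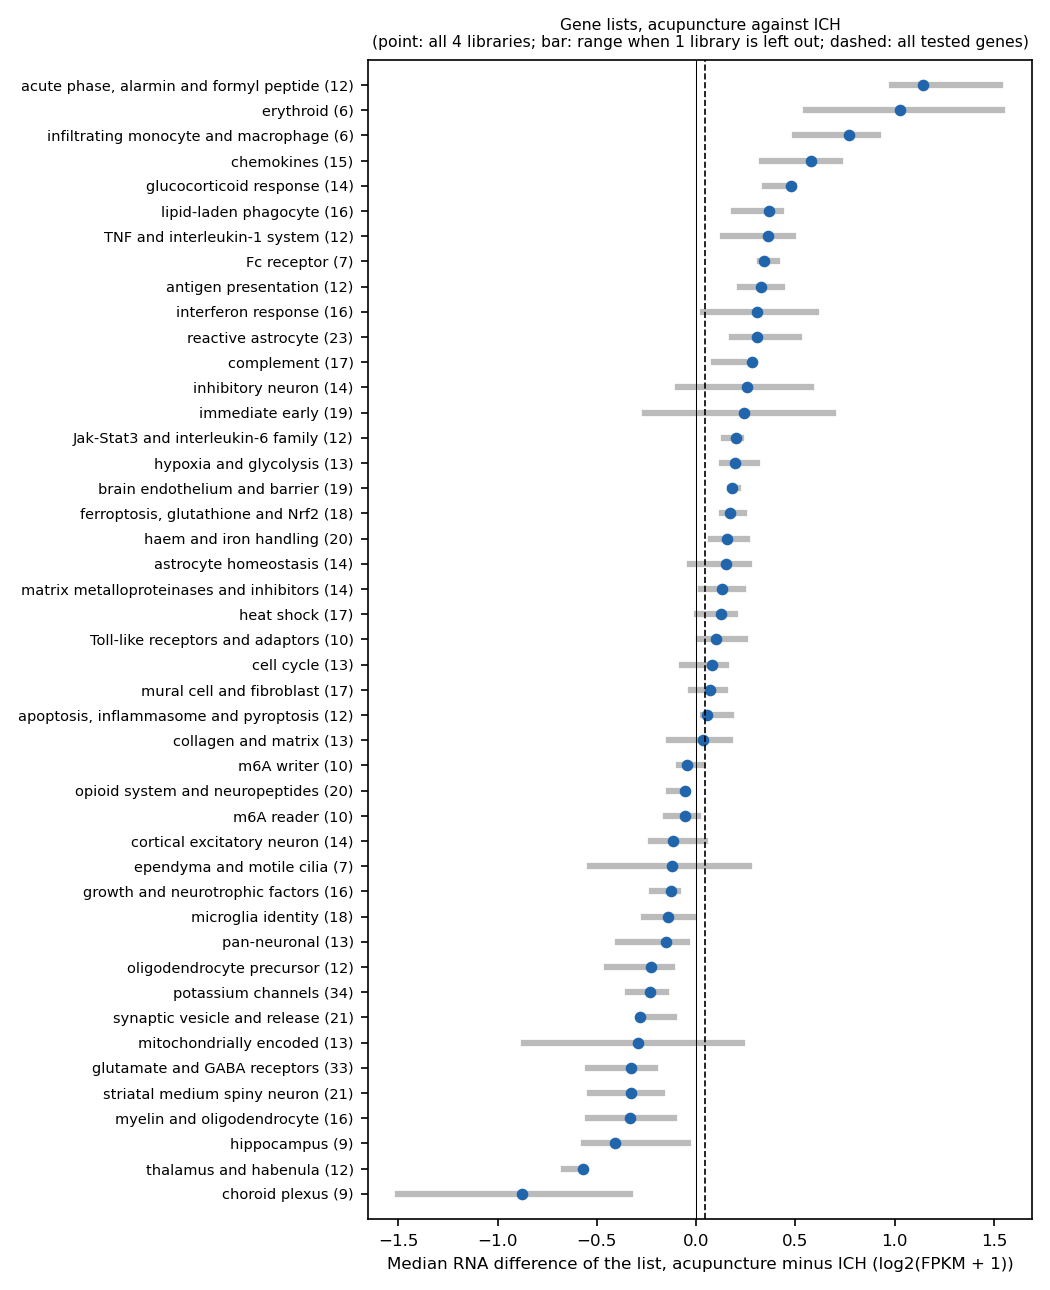
Median difference in RNA of each gene list with at least 5 measured members (number in brackets), acupuncture minus ICH on the log2(FPKM + 1) scale. Points use all 4 libraries, grey bars span the medians when any one of the 4 is left out, and the dashed line is the median of all tested genes (0.047); the bar of the thalamic list runs from -0.59 to -0.67, and that of the mitochondrial list crosses 0.

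The enzymes that write, erase and read m6A did not differ much in RNA. None of 10 writers, 2 erasers and 10 readers passed limma's test or was separated. Mettl3, the catalytic subunit, was at 2.70 and 2.37 FPKM in ICH and 2.65 and 3.35 FPKM in acupuncture, Mettl14 at 2.86 and 2.57 and 2.41 and 2.74 FPKM, and Wtap, which holds the complex in nuclear speckles, at 6.69 and 6.48 and 7.4 and 7.53 FPKM. Writers had log2 differences between -0.49 (Cbll1) and 0.18 (Mettl3). Fto was at 10.5 and 10.9 and 9.46 and 8.98 FPKM and Alkbh5 at 8.46 and 5.40 and 8.65 and 7.91 FPKM, where ICH replicate 2 was low. Among readers Ythdc2, an RNA helicase, was at 3.26 and 4.53 and 2.18 and 3.03 FPKM (limma adjusted p = 0.229). Without ICH replicate 1, 1 writer was separated lower and of the readers 1 was higher and 1 lower, and without acupuncture replicate 2 1 reader was lower. A p that misses the threshold does not show that levels were alike.

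m6A was compared through the authors' deposited table of differential peaks, which gives for each peak the log2 of IP over input in each group, their difference and a p-value, with no value per library. A total of 20948 peaks in 11943 genes are listed in the authors' deposited table, of which 3921 were higher in acupuncture (18.7%) and 17027 lower (81.3%), and 73.8% had an authors' adjusted p under 0.05. The median log2 IP over input in that deposited table was 1.12 in acupuncture and 1.52 in ICH, and the median difference was -0.46 with quartiles at -0.74 and -0.23. The upper quartile thus lay below 0, and by construction a centring on that median gives 50.0% lower. Only peaks with an authors' p under 0.05 or no p are listed there. These shares, medians and quartiles therefore describe selected peaks and not all m6A peaks. Counts by place in the transcript, again from the authors' deposited table, were 85.3% lower among 13024 peaks in 3′ untranslated regions, 80.2% of 2099 in 5′ untranslated regions, 72.1% of 3510 in exons, 72.0% of 1425 in exons of non-coding RNA and 76.2% of 839 in introns. The authors' separate lists of peaks per group hold 50105 peaks for acupuncture and 54754 for ICH, and 48251 for sham, with median log2 IP over input of 1.12, 1.24 and 1.07. No IP level per library was analysed here, so this shift could not be set against the spread between replicates.

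Genes with higher RNA in acupuncture had lower m6A more often than other genes, on top of the overall lower m6A. Of the 13666 genes, 10042 had a listed peak, and by the median of its peaks in the authors' deposited table, lower m6A in acupuncture was found for 85.2% of them and higher for 14.8%. Among genes separated higher in RNA, 501 of 686 had a listed peak, and 481 of these (96.0%) were lower in m6A in the authors' deposited table, with a median difference of -0.6. Among genes separated lower in RNA, 225 of 342 had one, and 137 of these (60.9%) were lower and 88 (39.1%) higher in the authors' deposited table, with a median of -0.2. Set against the median of all genes in the authors' deposited table (-0.45), 73.3% of the RNA-higher genes and 28.9% of the RNA-lower genes lay below it, beside 49.3% of genes not separated. When genes were put into 10 equal bins by their RNA difference, the share with higher m6A in the authors' deposited table went from 30.4% in the bin with the lowest RNA difference to 4.68% in the highest, and the median m6A difference from -0.3 to -0.56. The correlation across genes was weak, with Spearman's rho of -0.21 and Pearson's r of -0.2 over 10042 genes, and is given as a description. Input RNA of the same groups is the denominator of the m6A value, so input RNA enters both measures with opposite sign. How much of the relation this makes was not tested. Whether the authors' m6A values rest on exactly the libraries compared here is not known.

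**Figure D5:**
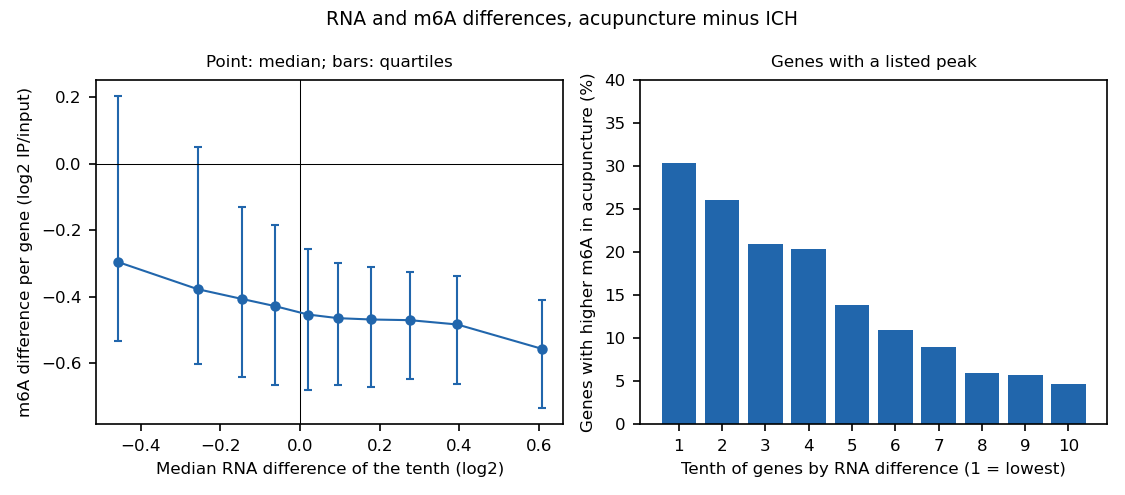
Left, the m6A difference per gene (log2 IP over input, acupuncture minus ICH, from the authors' deposited table) against the RNA difference, as medians with quartiles in 10 equal bins of 10042 genes. Right, the percentage of genes in each bin with higher m6A in acupuncture, which goes from 30.4% to 4.68%.

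Whether a gene had any peak at all also differed between separated genes and the others. By the authors' lists of peaks per group, 80.6% of the RNA-higher genes had a peak in both lists, as did 84.5% of the RNA-lower genes and 93.9% of the others. A peak in only 1 of the lists was seen for 2.92% (acupuncture) and 3.35% (ICH) of the RNA-higher genes. It was 3.22% and 2.63% for the RNA-lower genes, beside 0.839% and 1.17% of the others. No peak in either list was found for 13.1% of the RNA-higher and 9.65% of the RNA-lower genes, beside 4.06% of the others.

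The gene groups described above followed the general lean to lower m6A, with some exceptions. In the authors' deposited table all 13 complement genes, all 12 glucocorticoid-responsive genes and all 13 pan-neuronal genes with a listed peak were lower, beside 85.2% of all genes. For striatal genes it was 16 of 17 in the authors' deposited table, although their RNA was lower too. Higher in the authors' deposited table were 5 of 9 genes of Toll-like receptors and adaptors, 5 of 10 inhibitory neuron genes and 6 of 13 cortical genes, beside 14.8% of all genes. For single genes, the peak of Timp1 in the authors' deposited table went from 1.61 in ICH to 0.98 in acupuncture, that of Tnf from 2.78 to 1.84, and that of Vps25 from 1.36 to 0.44. Hspb1 went from 1.74 to 0.4 at its 5′ untranslated region in the authors' deposited table. Saa3 had 2 listed peaks in the authors' deposited table, both annotated to the 3′ untranslated region, one lower (1.97 in ICH, 1.26 in acupuncture) and one higher (-1.98 and 0.65, authors' adjusted p = 0.117). For Pde10a, whose RNA was lower, the authors' deposited table lists one peak higher (1.37 in ICH, 1.71 in acupuncture) and one lower (1.08 and 0.4). All 7 peaks of Grin2b in the authors' deposited table were lower, with differences from -0.22 to -0.92.

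Of the genes of the m6A machinery, all 9 readers and 6 of 8 writers with a listed peak were lower by their median in the authors' deposited table, beside 85.2% of all genes. Mettl3 carried 4 listed peaks, all lower in the authors' deposited table, with differences from -0.30 to -1.78. Wtap had 3, all lower in the authors' deposited table, and the one at its 5′ end went from 1.79 to 0.49 (authors' adjusted p = 0.0701). Neurod1 is shown beside Wtap because it is a gene whose RNA was lower (log2 difference -0.59) and whose peak at the 5′ end was higher in the authors' deposited table, at 1.84 in ICH and 2.76 in acupuncture (authors' adjusted p = 0.0705). The 28 bases around each GGAC core, the commonest form of the sequence that carries m6A, that lie in these peaks and in the RefSeq windows (GRCm38.p6, gene's strand, 5′ to 3′, core in capitals) are these.
Wtap (chr17:12992440-12992467, minus strand): gcgggcttccgcGGACtgtctccgtgcg
Neurod1 (chr2:79456736-79456763, minus strand): gtcgttcagtctGGACgcgtgcgcgatt
Neurod1 (chr2:79456709-79456736, minus strand): tgcggggcgcagGGACctgctcgttgct
The cores begin before the RefSeq start site, at -196 for Wtap and at -115 and -88 for Neurod1. They thus lie outside the transcript that begins at that site, although the authors' annotation places both peaks in 5′ untranslated regions. A core in a peak is a match of letters, and which base carries the mark is not resolved by these data.

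The widest single differences among peaks of at most 1000 bases are given for 6 genes in each direction. In the authors' deposited table the largest higher differences were those of Trappc8 (5.54, intron), Uvrag (4.75, intron), Nxpe3 (4.11, intron), Ankrd42 (3.63, 3′ untranslated region), Park7 (3.44, 5′ untranslated region) and Fam205a2 (3.36, exon). Uvrag acts in autophagy, and Park7, also known as DJ-1, in the defence against oxidative stress. The largest lower ones in the authors' deposited table were Rpl30 (-5.94, 3′ untranslated region), Trappc12 (-4.65, intron), Plppr1 (-4.25, exon), Tulp4 (-4.16, exon), Ankrd26 (-3.63, 3′ untranslated region) and Zfp507 (-3.57, 5′ untranslated region). Rpl30, a ribosomal protein, went from 8.04 in ICH to 2.1 in acupuncture in the authors' deposited table (authors' adjusted p = 6.65e-44). The RNA of Rpl30 was higher in acupuncture by 0.76 on the log2 scale, and that of the other 11 genes differed by between -0.22 and 0.47.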

How the data were processed

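The authors deposited 1 FPKM value per gene and input library, a unit given per the file headers. The authors' deposited peak tables give log2 IP over input for each group and their difference, with p-values, and list peaks with a p-value under 0.05 or none (49 peaks). Tools in the submitters' processing notes are fastp and HISAT2, HOMER, StringTie, and edgeR, without stated roles, and a human genome build (GRCh38), although the files hold mouse identifiers. FPKM carries no read counts, so depth and the precision it gives are unknown. Sham and acupuncture columns are headed control and EA and were matched by elimination; 2 columns that match no sample were not used. The column headed treated was taken as acupuncture, because it follows the acupuncture list at 4407 shared peaks (r = 1.0, median difference -0.0112).

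Values were analysed as log2(FPKM + 1) where the 7 libraries averaged 1 FPKM or more. limma 3.58.1 (R 4.3.3) fitted 1 mean per group with a moderated variance and trend, two-sided, with Benjamini-Hochberg adjustment over 13666 genes at 0.05, and was tested on simulated data. Named were all genes that passed, the 12 separated genes per direction with the smallest p and an approved symbol, up to 4 members per list, the m6A machinery, and the 6 largest m6A differences per direction; others are named where the text says so, where a count of 5 or fewer is spelled out or where a list member shows the spread within its group. The comparison, the 50 gene lists and the tests were chosen with earlier results of these data known. Promoters and sites come from RefSeq (GRCm38.p6), and tables were made in Python 3.11.15.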

Additional observations from a re-analysis of the deposited data

How the results depend on the processing

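The count of 5 genes that passed limma's test was 2 when only the 4 libraries entered the fit and ranged from 2 to 5105 when 1 library was left out. The labels' replicate numbers do not show that samples are paired (same-numbered libraries deviated together with a correlation of 0.0941, over 2 pairs); with a replicate block 3 genes passed. Separated higher genes numbered 1087 with a pseudocount of 0.1 FPKM, 424 at a mean of at least 5 FPKM, 3932 with no fold minimum and 110 at 2-fold, and 378 to 2027 with 1 library left out. Separated lower genes numbered 594, 177, 2835 and 63 under those settings and 212 to 1138 with 1 library left out. Without ICH replicate 2 and acupuncture replicate 2 together, a setting chosen after the data were seen, there were 435 higher and 229 lower. The share of m6A peaks lower in acupuncture was 84.4% at the authors' adjusted p under 0.05, 84.6% for spans up to 1000 bp, 83.2% in tested genes and 50.0% after centring on the median, the last by construction and chosen after the data were seen. Spearman's rho between RNA and m6A was -0.155 with the peak of smallest p, -0.158 for spans up to 1000 bp, -0.235 at a mean of at least 5 FPKM and -0.202 to -0.173 with 1 library left out. The 104 named genes checked here had an unadjusted limma p under 0.05 and were separated or passed. For separated genes, leaving out a library or changing the pseudocount cannot change the sign of the difference. That no sign changed was therefore largely fixed by this choice. Values were given under 14 alternatives (48 genes had none at a mean of at least 5 FPKM). In these, 1304 kept their side of the threshold, 86 crossed it upwards, 82 of them without ICH replicate 1, and 18 downwards. Leaving out 1 of 2 libraries assumes that the lone sample varies like the other groups. The median of 14 lists changed sign in at least 1 alternative: lymphocyte, astrocyte homeostasis, mural, collagen, ependyma, pan-neuronal, cortical, inhibitory, immediate early, cell cycle, mitochondrial, and m6A writer, eraser and reader. Except where fewer libraries, genes or a changed threshold make the difference, the cause was not tested.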
